A study of Mus musculus with 18 samples.

Results

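The genes described here encode heat shock proteins and the J-domain (DNAJ) proteins that work with them, in sorted mouse regulatory T cells (Tregs). They were taken as every row of the deposited count table whose symbol starts with Hspa, Hspb, Hspd, Hspe or Hsph, or Dnaja, Dnajb or Dnajc, followed by a digit, or with Hsp90. This gave 72 of 23420 rows, and 57 of the 72 were among the 10630 genes that passed the filter on low counts. The lists that group them by role hold 10 stress-inducible, 9 constitutive HSP70 and HSP90, 15 endoplasmic reticulum (ER) and 8 mitochondrial members, and the remaining 30 are other DNAJ and small heat shock genes. Of these lists 9, 7, 13, 8 and 20 genes were tested, in the order just given.

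The libraries came from mice of 3 genotypes at 1 floxed gene. Each genotype was sorted as effector and as resting Tregs, which gives 6 groups of 3 libraries, and the labels add a batch number from 1 to 3. The groups are effector and resting cells of mice with 2, 1 or 0 floxed alleles, called fl/fl, fl/+ and +/+ below. All 18 libraries, those of +/+ included, carry FCre, which the labels do not explain further. The labels do not give sex, age, the sorting gates or the cells in which FCre acts, nor whether replicates are separate animals, so p-values measure only the spread between these samples.

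Library totals ran from 1658073 to 5756903 expected counts, and the 72 genes together took 0.73 to 1.16% of a library's normalised counts. The Treg genes Foxp3 (211 to 478 CPM, normalised read counts on TMM library sizes), Il2ra (244 to 373 CPM), Ctla4 (68.0 to 505 CPM) and Ikzf2 (174 to 598 CPM) were present in every library. The B cell marker Cd79a ran from 0 to 25.6 CPM and was highest in the +/+ resting library of number 3, while Cd79b (5.01 to 31.9 CPM) and Cd74 (8.38 to 87.0 CPM) were present in every library. Of the myeloid markers, Cst3 was at 58.2 to 97.5 CPM in every library, Lyz2 reached 7.37 CPM, Itgam 3.62 CPM, Cd68 2.81 CPM and Csf1r 0.86 CPM, and S100a8 was at 0 throughout.

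HSP70 and HSP90 proteins bind unfolded or metastable clients and release them in cycles driven by ATP, and J-domain proteins deliver clients to HSP70 and trigger its ATP hydrolysis. Heat or proteotoxic stress activates the factor HSF1, which binds heat shock elements and induces genes such as Hspa1a, Hspa1b, Dnajb1 and Hsph1, while Hspa8 and Hsp90ab1 are made in unstressed cells. ER members such as Hspa5 (BiP) and Hsp90b1 (GRP94) are instead induced by the unfolded protein response, and the mitochondrial members fold imported proteins.

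The promoters below show motif matches in chosen inducible, mitochondrial and ER members, as given by RefSeq on GRCm38.p6, the assembly that mm10 represents. Not every member of a list holds such a match. The first pair are the inducible HSP70 genes, both on the minus strand, and each line gives the 250 bases before the annotated start. Hspa1a is at chr17:34972157-34972406 and Hspa1b at chr17:34959239-34959488, and capitals mark an inverted pair of heat shock element units (GAANNTTC).

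Hspa1a: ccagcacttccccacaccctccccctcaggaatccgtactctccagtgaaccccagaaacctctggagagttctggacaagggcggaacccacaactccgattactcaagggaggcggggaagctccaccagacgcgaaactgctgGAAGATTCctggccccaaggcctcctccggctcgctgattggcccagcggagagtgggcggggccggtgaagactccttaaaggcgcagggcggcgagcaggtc
Hspa1b: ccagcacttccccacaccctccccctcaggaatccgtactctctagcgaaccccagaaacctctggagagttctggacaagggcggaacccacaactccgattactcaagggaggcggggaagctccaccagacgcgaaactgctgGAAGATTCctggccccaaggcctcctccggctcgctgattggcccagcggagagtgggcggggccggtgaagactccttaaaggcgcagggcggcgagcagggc

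These windows differ at 3 of 250 bases. The transcripts are also alike, since 62.3% of the 50-base windows of Hspa1b occur without a mismatch in Hspa1a, so how the authors' counting split reads between the copies is uncertain and their sum is used below. Hspe1, the mitochondrial co-chaperonin, is shown next because its window holds 3 heat shock units in a row (TTCNNGAANNTTC). It starts beside Hspd1 and runs on the plus strand, and the line gives the 150 bases before its start, at chr1:55087998-55088147, with a longer run of such units in capitals.

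Hspe1: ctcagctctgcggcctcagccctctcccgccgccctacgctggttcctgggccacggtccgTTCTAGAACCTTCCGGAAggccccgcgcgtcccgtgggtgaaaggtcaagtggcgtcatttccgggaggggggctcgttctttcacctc

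The last pair are ER members, Hspa5 on the plus strand at chr2:34771940-34772089 and Hsp90b1 on the minus strand at chr10:86705445-86705594, again with 150 bases each. Capitals mark a match to the ER stress element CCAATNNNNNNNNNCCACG, which in Hsp90b1 lies on the opposite strand and so reads as its reverse complement.

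Hspa5: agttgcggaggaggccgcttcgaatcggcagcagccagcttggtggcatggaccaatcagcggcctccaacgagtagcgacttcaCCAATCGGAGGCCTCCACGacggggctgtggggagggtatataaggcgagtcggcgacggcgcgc
Hsp90b1: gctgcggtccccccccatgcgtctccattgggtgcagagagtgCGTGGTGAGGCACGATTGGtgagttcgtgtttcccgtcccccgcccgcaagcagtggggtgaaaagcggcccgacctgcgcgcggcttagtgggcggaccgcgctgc

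Promoters in the RefSeq table were found for 58 of the 72 members, and motifs were searched on both strands of the 250 bases before each start. The pair of heat shock units, written GAANNTTC or TTCNNGAA, was in 7 of 9 stress-inducible genes (77.8%), in 0 of 7 constitutive genes and in 14.5% of 27025 genes of the table. These counts leave out Hspa8, Hsp90ab1 and Hsp90aa1, which were not matched and so not searched. The 2 searched stress-inducible genes with no match were Dnajb1 and Hspb8. The 3-unit form was in 3 members, Hspd1, Hspe1 and Dnajb6, and in 0.514% of all genes. It contains the pair, so each of these is also counted there. The ER stress element was in 3 of 12 ER genes, which were Hspa5, Hsp90b1 and Dnajc3, and in 0.13% of all genes.

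On the authors' FPKM scale, which sets levels per transcript length, Hspa8 (HSC70, the constitutive cytosolic HSP70) had the highest level, with a mean of 1496 FPKM over 18 libraries and a range of 980 to 1829. Hsp90ab1 (HSP90-beta) followed with a mean of 702 FPKM, Hspe1 with 217, Hspa5 with 175 and Hsp90b1 with 111. The ranges of Hspa8 and Hsp90ab1 did not overlap those of any other member, whereas Hspe1 (184 to 265 FPKM) and Hspa5 (116 to 255 FPKM) overlapped. Next by mean were Dnajc7, a tetratricopeptide cochaperone that binds both HSP70 and HSP90, at 108 FPKM, and the HSP40-type Dnaja1 at 97.0 FPKM. Dnaja2, Dnajc8 and Hspd1 (HSP60) completed the highest 10.

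**Figure D1:**
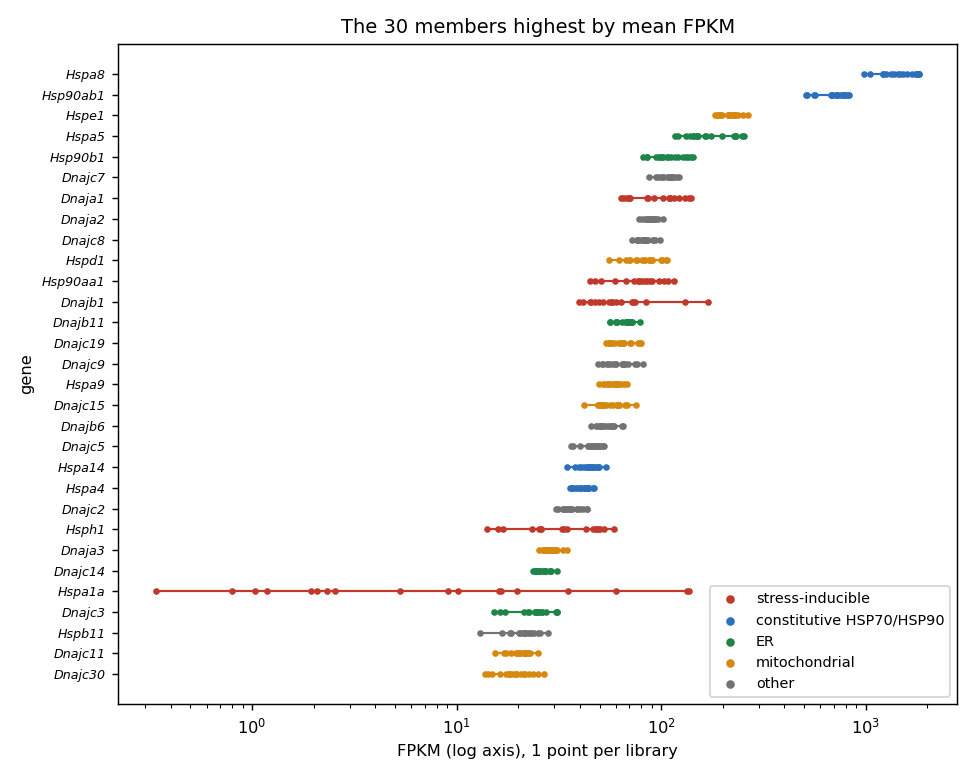
FPKM (log axis) of the 30 members with the highest mean, with 1 point per library (18 per gene), a line from the lowest to the highest library and colour by list. Hspa8 lies apart at 980 to 1829 FPKM, and Hspa1a has by far the longest line.

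Hspb2, Hspb3, Hspb8 and Dnajc5g had 0 counts in all 18 libraries. Hspb7, Dnajc22, Dnajc5b and Dnajb8 had between 1 and 4 expected counts in total. Of the 15 members that were not tested, the highest was Dnajc12 with 125 expected counts over 18 libraries.

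The spread between libraries differed widely among members. Hspa4 (APG-2, a nucleotide exchange factor for HSP70) ranged over 168 to 209 CPM, a ratio of 1.24 between the highest and lowest library, and Dnajb6, Dnajc14 and Dnajb11 had ratios of 1.25 to 1.32. Hspa1a ranged from 1.01 to 382 CPM, a ratio of 378, and Hspa1b from 0.42 to 93.5 CPM, a ratio of 222. Among members with counts in every library, which leaves out Hspb1, Hspa2 and Hspa12a, the next by this ratio, Dnajb13 and Dnaja4, had 22.5 and 21.4 at a lowest level of 0.39 CPM each. Dnajb1 had a ratio of 4.38 and Hsph1 of 3.75.

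Inducible HSP70 (Hspa1a and Hspa1b) varied many-fold between libraries of the same group, and its level went with genotype and batch number together. The sum of Hspa1a and Hspa1b was 32.9, 3.35 and 76.6 CPM in fl/fl effector libraries of numbers 1, 2 and 3, and 26.2, 5.40 and 69.8 CPM in the fl/fl resting libraries of the same numbers. In fl/+ it was 425, 7.49 and 40.1 CPM in effector cells and 476, 9.03 and 60.9 CPM in resting cells. In +/+ it was 5.69, 187 and 10.7 CPM in effector cells and 3.29, 129 and 10.2 CPM in resting cells. The highest libraries were therefore fl/+ number 1 and +/+ number 2, each in both states. The order of the numbers was the same in effector and in resting cells in 3 of 3 genotypes, and it was a different order in each genotype.

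**Figure D2:**
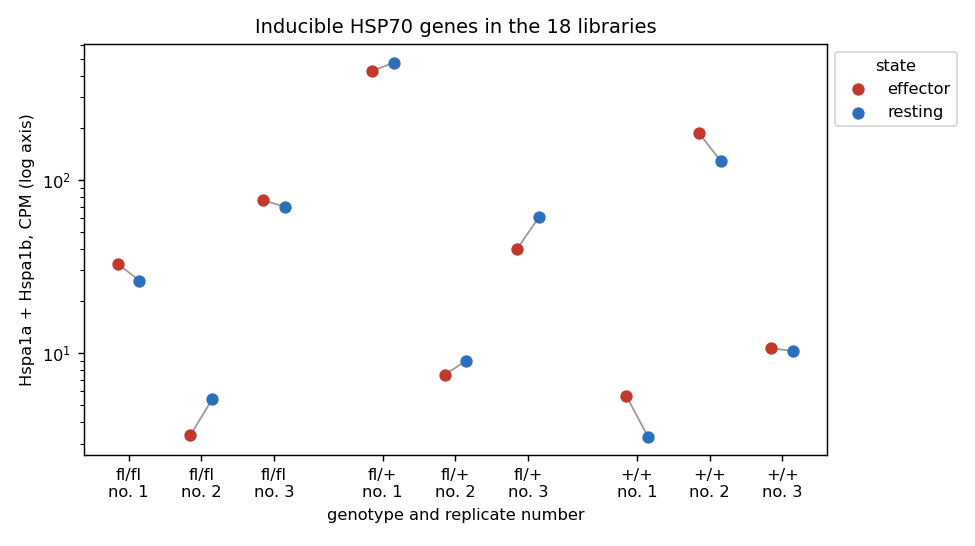
Summed CPM of Hspa1a and Hspa1b (log axis) in each of 18 libraries, by genotype and batch number, with a line joining the effector (left) and resting (right) library of each genotype and number. Joined points lie close together, while numbers of 1 genotype differ from 3.35 to 76.6 CPM in fl/fl effector cells and from 7.49 to 425 CPM in fl/+ effector cells.

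No comparison of groups called the summed pair without a block. The effector over resting fold was -0.01 on the log2 scale in fl/fl (SE 1.54), -0.23 in fl/+ (SE 1.26) and 0.43 in +/+ (SE 1.49). The fl/fl over +/+ fold was -0.83 (SE 1.53) in effector and -0.39 (SE 1.51) in resting cells, and fl/+ over +/+ was 1.39 (SE 1.38) and 2.05 (SE 1.41). With these errors a change of several fold between groups was not detectable. With the replicate block within genotype the sum was called for state in +/+ (0.48, SE 0.17, edgeR adjusted p = 0.047) and not in fl/+ (-0.32, 0.102), in fl/fl (0.14, 0.655) or on average (0.10, 0.388).

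The effector and resting libraries that share genotype and number moved together more widely. Their residuals from the group means correlated at 0.16 to 0.41 across genes in 9 of 9 pairs, a description over genes that are not independent. A test of the differences between numbers within each genotype, with 6 degrees of freedom and added after the data were seen, called 9 of 57 members in the edgeR quasi-likelihood fit, where called means a Benjamini-Hochberg adjusted p below 0.05. The background was 3.98% of all tested genes. Of the 9, 6 were among the 9 tested stress-inducible genes, and 2 were constitutive, 1 ER and none mitochondrial. The Benjamini-Hochberg adjusted p from edgeR was 1.38e-12 for Hspa1a, 8.25e-09 for Hspa1b, 6.14e-08 for Hsph1 (HSP110), 2.2e-07 for Dnajb1 (the main J-domain partner of inducible HSP70), 7.72e-07 for Dnaja1 and 0.00522 for Hsp90aa1 (HSP90-alpha). The other called members were Hspa8 (adjusted p = 0.000201), Hsp90ab1 (0.0362) and Hspa5 (0.0405). The 3 tested stress-inducible genes that were not called were Dnajb4, Dnaja4 and the low-count Hspb1.

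**Figure D3:**
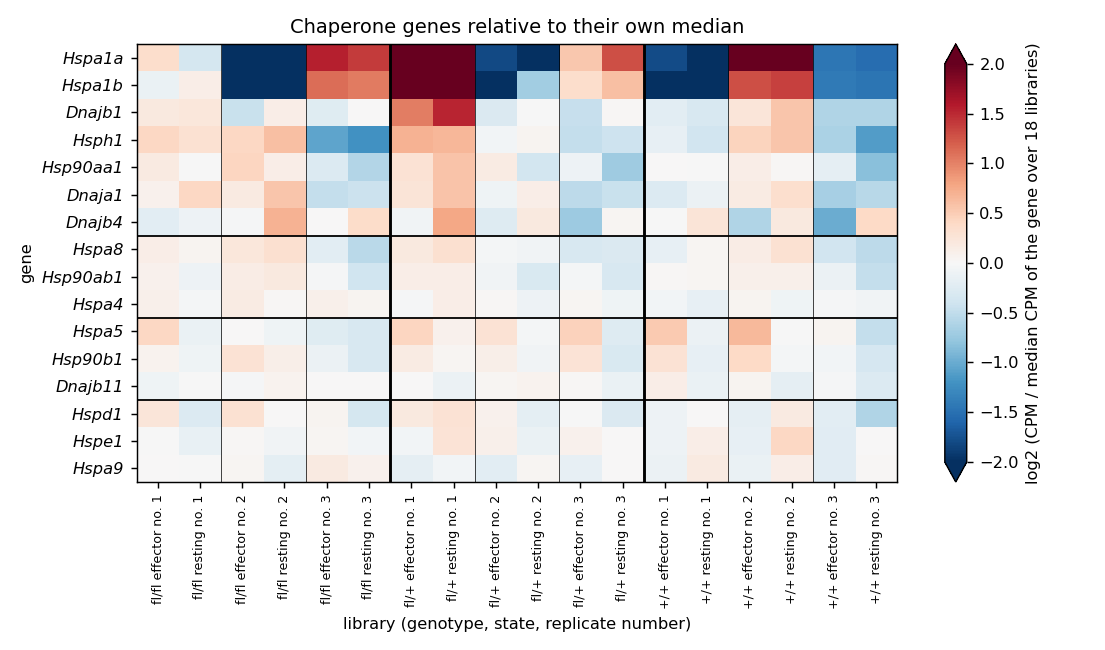
Log2 of CPM over each gene's median across 18 libraries for 16 members (rows: stress-inducible, constitutive, ER and mitochondrial from top to bottom), with fl/fl, fl/+ and +/+ columns from left to right and each effector library left of its resting partner. The colour scale ends at -2 and 2, which Hspa1a and Hspa1b exceed, and Hsph1, Dnaja1 and Hspa8 are low in all number 3 columns.

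Dnajb1 was 151, 96.4 and 112 CPM in fl/fl effector libraries and 155, 145 and 132 CPM in fl/fl resting libraries. It was 268, 108 and 95.3 CPM in fl/+ effector and 379, 131 and 134 CPM in fl/+ resting libraries, against 113, 156 and 86.6 CPM in +/+ effector and 106, 194 and 86.6 CPM in +/+ resting libraries. Its highest libraries, fl/+ number 1 and +/+ number 2, were those with the highest inducible HSP70. In fl/fl, however, number 3 had the highest Hspa1a while Hsph1 was lowest there. Relative to number 1, fl/fl number 3 was at 1.44 on the log2 scale for Hspa1a (SE 0.24) and at -1.50 for Hsph1 (SE 0.14). So the stress-inducible members did not all follow the same order of libraries.

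A second pattern ran through the batch numbers across all 6 groups. Hsph1 was 156, 157 and 56.7 CPM in fl/fl effector libraries of numbers 1, 2 and 3 and 145, 178 and 50.7 CPM in fl/fl resting libraries. It was 190, 113 and 84.2 CPM in fl/+ effector and 185, 122 and 88.1 CPM in fl/+ resting libraries. It was 105, 161 and 75.9 CPM in +/+ effector and 90.4, 173 and 53.9 CPM in +/+ resting libraries. Number 3 was the lowest library in every group, and the highest number 3 library (88.1 CPM) lay below the lowest of the others (90.4 CPM).

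The test between numbers, with 2 degrees of freedom over all groups, called 4 of 57 members against a background of 1.65%. That test takes the 18 libraries as independent, although effector and resting libraries of a genotype and number deviate together, so its p-values are too small. With the states summed, which leaves 9 sums and was chosen after the data were seen, edgeR called 0 of 57 members (12 at an unadjusted p under 0.05) and 0.047% of all genes. The 4 members called over 18 libraries were Dnaja1 (edgeR adjusted p = 0.000875), Hsph1 (0.00335), Hspa8 (0.00341) and Hsp90aa1 (0.0177). Number 3 over number 1 was -1.07 on the log2 scale for Hsph1 (SE 0.18), -0.69 for Dnaja1 (SE 0.10), -0.62 for Hsp90aa1 (SE 0.12) and -0.48 for Hspa8 (SE 0.09). In the sums their adjusted p was 0.103 for Dnaja1, 0.118 for Hspa8 and for Hsp90aa1, and 0.15 for Hsph1. Number 2 over number 1 lay between -0.10 and 0.09 for these 4 genes over all groups, but it differed between genotypes. For Hsph1 it was 0.154 in fl/fl (SE 0.126), -0.678 in fl/+ (SE 0.126) and 0.785 in +/+ (SE 0.131). All 4 genes were below 0 in fl/+ and above 0 in fl/fl and +/+. With numbers 1 and 2 alone the edgeR test called 0 of 56 members between numbers (5 at an unadjusted p under 0.05), and within genotype it called 5, Hspa1a, Hspa1b, Dnajb1, Hsph1 and Dnaja1.

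Number 3 was the lowest of its group in all 6 groups for 6 of 57 members, Hsph1, Dnaja1, Hsp90aa1, Hspa8, Hspd1 and Dnajb14, against 0.781% of all tested genes. For Hspa8 the number 3 libraries ranged from 2092 to 2630 CPM, and the other 12 from 2728 to 3818 CPM. In Dnaja1 the number 3 range was 336 to 393 CPM against 441 to 793 CPM in the others. Neither pair of ranges overlapped. Hsp90ab1, the constitutive HSP90, was lowest in number 3 in 5 of 6 groups.

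Other genes also differed between numbers within genotype. Among 21 tested genes of the list of HSF1 and cochaperones, the within-genotype test called 6, beside 3.98% of all tested genes, which included Stip1 (the HSP70 to HSP90 adaptor HOP, adjusted p = 0.000623), Chordc1 (0.00044) and Ahsa1 (the HSP90 ATPase activator, 0.00881). Number 3 was lowest in all 6 groups for 5 of the 21, Stip1, Ahsa1, Chordc1, Ptges3 and Cacybp. Hsf1 itself ranged only from 65.5 to 84.8 CPM, and none of the 8 genes of the cytosolic chaperonin TRiC was called between numbers in edgeR (0 of 8 at unadjusted p under 0.05 within genotype and 1 of 8 over all groups). Of all 10630 genes, 1637 and 1732 were at that unadjusted level.

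Immediate early genes of the kind that tissue dissociation induces differed likewise. The within-genotype test called 9 of 15 of them, also beside 3.98%, namely Fos, Fosb, Jun, Junb, Ier2, Btg2, Dusp1, Nfkbia and Klf6. The sum over this list was 1826 to 2084 CPM in number 3 libraries and 2174 to 4587 CPM in the others, with no overlap. Of the 15 tested genes, only 1, Junb, was lowest in number 3 in all 6 groups, beside 0.781% of all tested genes. The highest library of the sum, fl/+ resting number 1, was also the highest for inducible HSP70. In fl/fl, however, number 3 had the lowest sums, 1956 CPM in effector and 2015 CPM in resting cells. Its inducible HSP70 was the highest of fl/fl, at 76.6 and 69.8 CPM. The summed B cell markers were 32.6 to 161 CPM in number 3 libraries and 19.3 to 92.4 CPM in the others, and the summed myeloid markers 69.3 to 99.9 and 65.1 to 103 CPM. Of 6 tested genes used to check Treg identity, Foxp3, Ctla4 and Ikzf2 were called between numbers within genotype as well. The other 3 were not called, and the background was 3.98% of all genes. Within genotype, 2 of 5 tested B cell markers (Ms4a1 among them) and 0 of 2 tested myeloid markers were called by edgeR. At an unadjusted p under 0.05 there were 5 and 1, beside 1637 of 10630 genes. The part of handling, of other cells or of Treg make-up in the chaperone differences was not tested.

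Of the ER chaperones, 4 of 13 were called by state, a share near the 32.9% of all genes called in either direction. All 4 were higher in effector than in resting cells and 0 were lower, beside 17.5% and 15.4% of all genes. Averaged over the 3 genotypes, 12 of 57 members were called, a share below the background of 32.9% of all tested genes. Of these, 7 were higher, against 17.5% of genes, and 5 were lower, against 15.4%. On the FPKM scale, where the median of all genes was 0.07 instead of -0.01 on the log2 scale, 13 were higher and 2 lower. In bulk libraries fewer cells of a type and less RNA per cell cannot be told apart.

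The called ER members were Hspa5, Hsp90b1, Hspa13 and Dnajc1, 4 of 13 tested, and all were higher in effector cells. Hspa5, which guards ER folding and restrains the stress sensors, was 528, 401 and 335 CPM in fl/fl effector libraries, and 364, 373 and 318 CPM in fl/fl resting libraries. It was 533, 483 and 548 CPM in fl/+ effector and 422, 386 and 331 CPM in fl/+ resting libraries. It was 571, 621 and 414 CPM in +/+ effector and 367, 393 and 286 CPM in +/+ resting libraries. Effector and resting values did not overlap in fl/+ or in +/+ and did overlap in fl/fl. The log2 fold was 0.45 on average (SE 0.09, edgeR adjusted p = 0.00071), with 0.27 in fl/fl (SE 0.16, not called), 0.46 in fl/+ (adjusted p = 0.0546, and 0.00177 with the replicate block within genotype) and 0.62 in +/+ (adjusted p = 0.0102). The +/+ call was lost without effector number 2 (adjusted p = 0.0654) or without resting number 3 (0.0595).

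Hsp90b1, the ER member of the HSP90 family, averaged 307 ± 43.8 CPM in fl/fl effector and 272 ± 40.8 CPM in fl/fl resting cells (SD, n = 3 each, as for the means that follow). It averaged 327 ± 18.9 in fl/+ effector and 266 ± 31.8 CPM in fl/+ resting cells, and 336 ± 53.0 in +/+ effector and 255 ± 27.1 CPM in +/+ resting cells. Its average log2 fold was 0.29 (SE 0.08, edgeR adjusted p = 0.00665). Within +/+ it was 0.40 and missed the threshold (adjusted p = 0.052), but its adjusted p was 0.00335 once libraries were blocked by number within genotype, and 0.0208 in fl/+.

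Hspa13 (STCH, a microsomal HSP70 relative) had an average log2 fold of 0.53 (SE 0.18, edgeR adjusted p = 0.0247), and Dnajc1, an ER membrane J-protein, of 0.32 (SE 0.10, adjusted p = 0.0121). The Hspa13 call was lost without +/+ effector number 2 (adjusted p = 0.056) or fl/+ effector number 3 (0.0568). Dnajc1 averaged 71.9 ± 13.6 CPM in fl/fl effector and 67.5 ± 12.7 CPM in fl/fl resting cells, against 92.6 ± 10.4 CPM in +/+ effector and 68.0 ± 3.15 CPM in +/+ resting cells. Dnajb9 (ERdj4) and Dnajc10 (ERdj5), both J-domain partners of Hspa5, were not called by edgeR in any comparison, but with no filter on low counts Dnajb9 was called between numbers (adjusted p = 0.0123) and within genotype (0.017). With the replicate block within genotype Dnajc1 was called in +/+ (0.46, adjusted p = 0.0383), and without it was not (0.0649). Dnajb11 (ERdj3) was called in +/+ with the replicate block for number (0.25, adjusted p = 0.0423) and by DESeq2 (0.0383), and was not called by edgeR without a block (0.0529) or with the block within genotype. The list's median over 13 genes was 0.09, beside -0.01 for all genes.

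**Figure D4:**
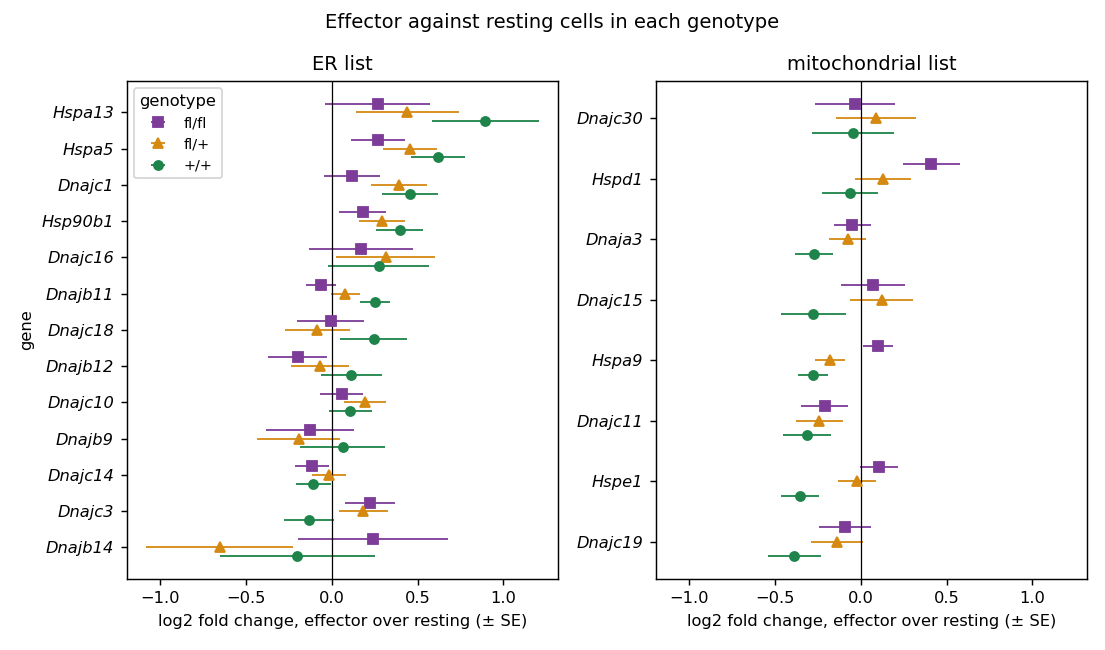
Log2 fold change of effector over resting cells with its SE for 13 ER (left) and 8 mitochondrial (right) members, fitted within fl/fl (squares), fl/+ (triangles) and +/+ (circles), 3 libraries per group. Hspa5 lies at 0.27 in fl/fl, 0.46 in fl/+ and 0.62 in +/+, and Hspe1 and Hspa9 are below 0 in +/+ but not in fl/fl.

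Genes of the unfolded protein response outside the family gave 11 of 24 called in the average, beside 32.9% of all tested genes, with 9 higher (background 17.5%) and 2 lower (15.4%). Sdf2l1, an ER cochaperone of BiP and its J-proteins, was higher in effector cells of fl/fl (0.94), fl/+ (0.71) and +/+ (1.02), and so was the disulfide isomerase Pdia3 (0.30, 0.34 and 0.34). Both were called in each genotype. Of the 2 lower genes, Herpud1 fell by 0.19 and Trib3 fell by 1.01 on the log2 scale. In the list of HSF1 and cochaperones, 3 of 21 tested genes were called in the average, a share below the 32.9% of all genes. Of these 2 were higher and 1 lower, and the list's median was -0.05 with 7 of 21 above 0. Its member Bag3, an HSF1 target and HSP70 nucleotide exchange factor, was called in each genotype, at 1.63 in fl/fl, 1.56 in fl/+ and 1.25 in +/+. Bag3 averaged 12.8 ± 5.68 CPM in fl/fl effector and 4.32 ± 0.44 CPM in fl/fl resting cells, against 25.6 ± 9.55 CPM in +/+ effector and 10.3 ± 3.75 CPM in +/+ resting cells. Ctla4, which marks effector Tregs, averaged 292 CPM in effector against 110 CPM in resting cells. Of the markers of other cells, 0 of 5 B cell genes were called in edgeR (4 at an unadjusted p under 0.05, beside 4502 of 10630 genes) and 1 of 2 myeloid genes, Cst3, was higher. The part of such differences in the chaperone values was not tested.

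Among the 9 tested stress-inducible members, 1 was called higher and 1 lower in effector cells on average, beside 17.5% and 15.4% of all genes. Hspb1 (HSP27) was higher by 2.98 on the log2 scale (SE 0.79, edgeR adjusted p = 0.0072), a fitted value that is no measured fold because all fl/fl resting libraries had 0 counts. Its level was at most 7.38 CPM, and +/+ had 39 counts in effector against 8 in resting cells, a ratio of 4.67 with a 95% counting interval of 2.15 to 11.6. Without fl/fl effector number 1 the call was lost (adjusted p = 0.089). Dnajb4, a cytosolic J-protein, was lower (-0.62, SE 0.17, adjusted p = 0.00721). Dnajb1 and Dnaja1 were not called without a block, and with the replicate block within genotype both were lower in effector cells, Dnajb1 at -0.26 (adjusted p = 0.0028) and Dnaja1 at -0.20 (0.00227). Hsp90aa1 was then higher at 0.26 (0.0173). In that fit 20 of 57 members were called on average, beside 37% of all tested genes, 11 higher (background 19.2%) and 9 lower (17.8%), and the others it added were Dnaja4, Hsp90ab1 and Hspd1 (higher) and Dnajc7 and Dnaja2 (lower). Within genotypes it also called Dnajb1 in fl/+ (-0.43, 0.00554) and Hspb1 in +/+ (0.0359) and fl/+ (0.0441).

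In the constitutive list Hspa4l rose by 0.43 on the log2 scale (SE 0.14, edgeR adjusted p = 0.0257) and the low-count Hspa2 by 2.23 (SE 0.51, adjusted p = 0.00205). Without any 1 of 4 libraries the Hspa4l call was lost, and its adjusted p was highest without fl/fl effector number 1 (0.0852). In fl/+ the replicate block within genotype also called Hspa4l (0.62, adjusted p = 0.0382) and Hspa2 (2.29, 0.014). Hspa8 was not called by state. The remaining lower members were Dnajc5 (cysteine string protein, -0.25, adjusted p = 0.00378), Dnajc6 (auxilin, -0.88, adjusted p = 0.0108), Dnajc28 (-0.87, adjusted p = 0.0489) and the mitochondrial Dnajc11 (-0.25, adjusted p = 0.0171). The Dnajc6 average came mostly from fl/+, with means of 1.35 CPM in effector and 5.62 CPM in resting cells. Its means were 2.88 and 3.42 CPM in +/+ and 3.06 and 3.92 CPM in fl/fl. Dnajc11 lost its call without fl/fl effector number 1 (0.0518), and Dnajc28 lost it in 20 of 27 alternatives. On log2(FPKM + 1) and log2(FPKM + 0.1) the limma fit did not call Dnajc5 (adjusted p = 0.0785 and 0.0789) or Dnajc11 (0.119 and 0.116).

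Within +/+ alone, 4 of 57 members were called against 16% of all tested genes, 2 higher (background 9.49%) and 2 lower (background 6.5%). On the FPKM scale with a pseudocount of 1, 5 were called and all were higher, and with RLE scaling 4 were higher and 1 lower. The median of all genes in +/+ was 0.075 on that FPKM scale and 0.008 with RLE, beside -0.012 with TMM, so the directions depend on the scaling. The count fell to 1 or 2 without any 1 of the +/+ libraries other than effector number 3. Besides Hspa5, Hspa2 was higher on 30 counts in effector against 3 in resting cells, a ratio of 9.58 with a 95% counting interval of 2.98 to 49.1. That rested on effector number 1 at 5.47 CPM, without which its adjusted p was 0.57. The lower members were both mitochondrial. Hspe1 was 134, 128 and 123 CPM in +/+ effector and 157, 192 and 144 CPM in +/+ resting libraries (log2 fold change -0.36, SE 0.11, adjusted p = 0.0342). Hspa9 (mortalin, the mitochondrial HSP70) was 162, 160 and 150 CPM in +/+ effector and 200, 193 and 180 CPM in +/+ resting libraries (-0.28, SE 0.09, adjusted p = 0.0357). The groups did not overlap for either gene, but on the FPKM scale neither was called. Each call was also lost without any 1 of 5 of the 6 +/+ libraries, at an adjusted p of up to 0.24 for Hspe1 and 0.127 for Hspa9.

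Within fl/+, 3 of 57 members were called against 16.3% of genes. None was higher (background 9.72%) and 3 were lower (background 6.58%). On the FPKM scale 2 were higher and 2 lower, and with RLE scaling 1 was higher and 2 were lower. The median of all genes in fl/+ was 0.079 on log2(FPKM + 1) and 0.002 with RLE, beside -0.007 with TMM. Dnajc6 was 1.32, 1.29 and 1.45 CPM in fl/+ effector and 4.94, 6.28 and 5.62 CPM in fl/+ resting libraries (log2 fold change -2.01, SE 0.43, adjusted p = 0.00294), with no overlap. Dnajc17, a nuclear J-protein, was at -0.76 (adjusted p = 0.0316) and Dnajc5 at -0.31 (adjusted p = 0.0484). The Dnajc17 call was lost without any 1 of the 4 fl/+ libraries of numbers 1 and 3 (adjusted p up to 0.164), and Dnajc5 was called in 6 of 27 alternatives only. Without fl/+ resting number 1 or 3, or effector number 3, the count was 1. With the replicate block 8 were called in fl/+ and 8 in +/+.

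Within fl/fl no member was called by edgeR, against 6.34% of genes (5.01% higher and 1.33% lower). At an unadjusted p under 0.05 there was 1, Hspd1, beside 2027 of 10630 genes, and DESeq2 and the FPKM fits also called 0. Hspd1 was 224, 234 and 195 CPM in fl/fl effector and 157, 189 and 147 CPM in fl/fl resting libraries, with no overlap (log2 fold change 0.41, SE 0.16, adjusted p = 0.16). Blocking by number within genotype brought it to an adjusted p of 0.0259 in edgeR.

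These state effects were not shown to differ between genotypes. The interaction for fl/fl against +/+ called 0 of 57 members in edgeR, where it called 0% of all genes. At an unadjusted p under 0.05 it had 3, namely Hspa9, Hspe1 and Dnajb11, beside 953 of 10630 genes. The interaction for fl/+ against +/+ also called 0, beside 0.0188% of genes. At an unadjusted edgeR p under 0.05 it had 2 members, beside 343 of 10630 genes. These were Dnajc6 (-1.86, SE 0.62, unadjusted p = 0.00712) and Hspe1 (0.33, SE 0.16, unadjusted p = 0.0461). DESeq2 called 0 in both. For Hspa9 the difference of the state effects, fl/fl less +/+, was 0.38 on the log2 scale (SE 0.12, unadjusted p = 0.00631, adjusted p = 0.395), and for Hspe1 it was 0.46 (SE 0.16, adjusted p = 0.414).

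Genotype moved few members. In effector cells, fl/fl against +/+ called 1 of 57, beside 2.81% of all tested genes. At an unadjusted p under 0.05 there were 8 of 57, beside 1834 of 10630 genes. The called gene was Hspb1, a small heat shock protein that holds unfolded clients, at 0.58, 0.33 and 0 CPM in fl/fl effector libraries and 3.79, 7.38 and 2.58 CPM in +/+ effector libraries. This is 4 against 39 counts, a ratio of 0.0974 with a 95% counting interval of 0.0253 to 0.27 (log2 fold change -3.36, SE 0.88, edgeR adjusted p = 0.0488). In fl/+ effector cells Hspb1 was at 1.49, 3.88 and 0.97 CPM. These values lay above those of fl/fl but overlapped those of +/+. Neither fl/+ against +/+ (edgeR adjusted p = 0.942) nor fl/fl against fl/+ (0.31) was called. The call was lost in 15 of 26 alternatives, DESeq2 among them, and the adjusted p over the alternatives ran from 0.00589 to 0.202. It was 0.0611, 0.202 and 0.132 without fl/fl effector number 1, 2 or 3, and 0.143 and 0.193 without +/+ effector number 1 or 2.

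Other members in this comparison missed the threshold. Hspa5 was at -0.34 (SE 0.16, adjusted p = 0.275) and Hspa9 at 0.23 (SE 0.09, adjusted p = 0.169) in fl/fl over +/+ effector cells. The ER list had a median of -0.19 with 2 of 13 genes above 0, and the mitochondrial list a median of 0.18 with 8 of 8 above 0, beside 0.01 for all genes. In edgeR 0 members of either list were called, and DESeq2 called none. At an unadjusted p under 0.05 there were 2 in each, beside 1834 of 10630 genes. In fl/+ over +/+ effector cells the ER median was -0.04 with 2 of 13 above 0. There the mitochondrial median was 0.21 with 6 of 8 above 0. The TRiC genes were above 0 in 8 of 8 in both comparisons, with medians of 0.225 for fl/fl and 0.131 for fl/+. Both comparisons use the same +/+ effector libraries, so their directions are not independent. In fl/fl over fl/+ effector cells the ER median was -0.09 with 2 of 13 above 0, beside 0.01 for all genes. The mitochondrial median there was 0.05 with 5 of 8 above 0, and the TRiC median 0.09 with 8 of 8. So the mitochondrial shift was also seen in fl/+ and in genes outside the list. The ER median was smaller in size in fl/+ than in fl/fl.

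**Figure D5:**
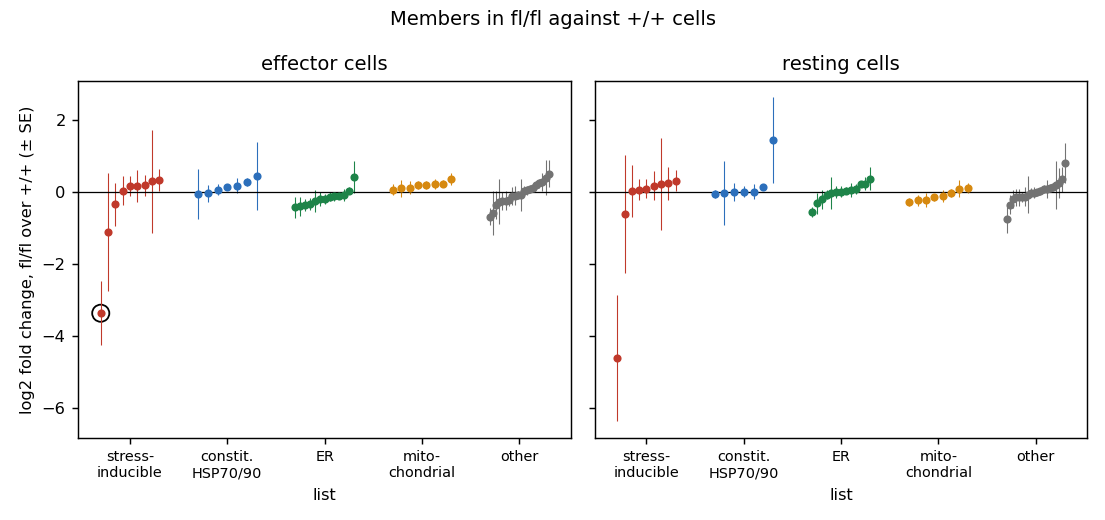
Log2 fold change of fl/fl over +/+ with its SE for the 57 tested members by list, in effector (left) and resting (right) cells, sorted within each list. The circled point is Hspb1 (-3.36 in effector cells), and the lowest point on the right is Hspb1 as well, where fl/fl libraries had 0 counts and the fitted size is not a measured fold.

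In resting cells fl/fl against +/+ called 0 of 57 members in edgeR, beside 0.696% of all genes. At an unadjusted p under 0.05 there were 4, beside 873 of 10630 genes. Dnajc3 (p58IPK, an ER J-protein and inhibitor of the kinase PERK) was 113, 86.8 and 82.8 CPM in fl/fl resting and 133, 141 and 140 CPM in +/+ resting libraries, with no overlap. Its log2 fold was -0.55 (SE 0.14, adjusted p = 0.0957), and it was called with the replicate block (adjusted p = 0.0344) and by DESeq2 (0.0355). Without fl/fl resting number 1 the edgeR fit called 1 member in place of 0. In fl/fl effector cells Dnajc3 was 119, 87.4 and 125 CPM against 148, 122 and 105 CPM in +/+ effector cells, which overlapped.

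The remaining genotype comparisons called 0 members in edgeR and 0 in DESeq2. These were fl/+ against +/+ in effector cells (background 0.00941%, 3 at an unadjusted p under 0.05) and in resting cells (background 0.0847%, 0 at an unadjusted p under 0.05). Of all 10630 genes, 581 and 669 were at that unadjusted level. For fl/fl against fl/+ the background was 0.677% in effector cells, with 5 at an unadjusted p under 0.05, and 0.0282% in resting cells, with 2. Here 1250 and 513 of 10630 genes were at that unadjusted level. The fl/+ comparisons include library number 1 of fl/+, whose summed inducible HSP70 was 425 CPM in effector and 476 CPM in resting cells. Without both of those libraries they again called 0.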

How the data were processed

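Per the submitters' processing notes, the authors worked on build mm10 and their tools were RSEM 1.2.8, STAR 2.6.0 and bcl2fastq 2.17.1.14. Annotation, strand setting and filters were not given in the sources used here, so overlapping antisense reads cannot be told apart. The deposited expected counts (29.4% of nonzero values not whole, rounded here) entered every main test. The deposited FPKM values served for levels and alternatives only. All 10630 genes that passed filterByExpr were fitted with 6 group means over 18 libraries (edgeR 4.0.16, TMM, quasi-likelihood F test, R 4.3.3), and the call rule was a Benjamini-Hochberg adjusted p below 0.05. CPM use TMM library sizes, and SD are over 3 libraries. Low counts carry exact binomial intervals (95%), which cover counting error only. The fit was tested on simulated data. Alternatives were RLE scaling, no filter, DESeq2 1.42.0, limma 3.58.1 on log2(FPKM + 1) and log2(FPKM + 0.1), leaving out each library, counts summed over states, and blocks for batch number, over all groups or within genotype. The labels call the number a batch, and libraries sharing genotype and number deviated together (mean residual correlation 0.25 in 9 pairs), while those sharing only the number did so less (0.07 in 36 pairs). Named genes were members called in any comparison, tested members of the 4 lists, the 10 highest by FPKM and up to 4 called genes per related list. Members and lists were chosen with earlier results of these data known. The targeted gene is not reported here.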

Additional observations from a re-analysis of the deposited data

How the results depend on the processing

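No named fold called without a block changed its direction under the settings tried. Of those called only under an alternative, Dnajb1 in fl/+ ran from -1.10 to 0.26 and Hspa1a in +/+ from -2.54 to 4.01 over the alternatives. With the replicate block for number, 8 members were called for state in +/+ and 8 in fl/+, against 4 and 3 without it, and 1 for fl/fl against +/+ in resting cells against 0. With the replicate block within genotype the state counts were 8 in +/+, 9 in fl/+, 1 in fl/fl and 20 on average. The block changed no other count by over 1.5 times. With no filter on low counts the counts were 13 between numbers, 8, 6 and 1 for state in +/+, fl/+ and fl/fl, 2 and 2 for fl/fl against +/+ in effector and resting cells, and 3 in each state for fl/+ against +/+ and for fl/fl against fl/+, where the cause was not tested. DESeq2 called 0 members for fl/fl against +/+ in effector cells and 1 in resting cells, and log2(FPKM + 0.1) called 0 in effector cells. With states summed per genotype and number, chosen after the data were seen, 0 members were called between numbers. With numbers 1 and 2 only, chosen after the data were seen, the counts were 0 between numbers, 5 within genotype, 0 for state in fl/+, 6 on average and 0 for fl/fl against +/+ in effector cells. Without both fl/+ number 1 libraries, also chosen afterwards, 2 were called for state in +/+ and 0 for fl/fl against +/+ in effector cells. Both leave fewer samples. Leaving out 1 library at a time gave 1 to 5 for state in +/+, 1 to 4 in fl/+, 8 to 15 on average, 0 to 1 for fl/fl against +/+ in each state, 3 to 6 between numbers and 7 to 9 within genotype. Hspa5 in +/+ kept its call in 25 of 27 alternatives, Hspe1 in 15, Hspa9 in 13 and Hspa2 in 9, and on average over genotypes Hspa5 and Hsp90b1 in 27 of 27. Members under 10 CPM, such as Hspb1 and Hspa2, rest on few counts. The counts in this paragraph are given without the share of all genes called under each setting. They therefore do not set the members against other genes. The same holds for the FPKM and RLE counts above, and for the unadjusted counts with states summed and with numbers 1 and 2 only.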
